A study of Rattus norvegicus with 6 samples.

Results

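Collagens and laminins are the chains that build the extracellular matrix and the basement membrane, the sheet on which epithelial cells rest. Their transcripts were read with and without CREB3L1 in a line of rat mammary tumour cells, LN4D6. The chains were chosen by name, as all probe sets whose single annotated gene symbol was a collagen alpha chain (Col, number, a, number), a laminin alpha, beta or gamma chain, or one of the nidogens. This gave 75 probe sets of the 31042 tested, for 53 of 14217 genes: 58 probe sets for 41 collagen genes, 14 for 10 laminin genes and 3 for the 2 nidogen genes. Col28a1, Col4a3 and Col6a4, which carry such symbols in the RefSeq gene table of assembly GRCr8, were not analysed here.

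The study compared 3 samples of untransfected LN4D6 cells with 3 samples of LN4D6 cells transfected with CREB3L1. The labels name no empty-vector control, do not say whether the transfected cells were a clone or a pool, and give no time after transfection. Total RNA was labelled with biotin and hybridised to 1 Affymetrix 3' expression array per sample, and the comparison asks which transcripts differ once CREB3L1 has been introduced. Values are log2 expression values. Differences are CREB3L1 minus untransfected on that scale with their standard error, tested with limma and adjusted by the Benjamini-Hochberg method over all 31042 probe sets, with a threshold of 0.05. Levels are mean ± SD with n = 3 per group. The table carries no detection calls, so a group mean of 5 was used as the level above which a probe set counts as detected, and a fold against a group below 5 is a lower bound computed against 5.

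Each collagen molecule is a trimer of alpha chains that wind around each other through repeats in which glycine recurs at regular steps. Fibrillar collagens form the fibrils of connective tissue, collagen IV and the laminins form the networks of the basement membrane, and collagen VI forms beaded filaments that link fibrils to these networks. Laminins are trimers of 1 alpha, 1 beta and 1 gamma chain and are bound by integrins on the basal face of epithelial cells. The factor CREB3L1 sits in the endoplasmic reticulum membrane until proteolysis frees it to enter the nucleus, and in bone-forming cells it is known as an activator of Col1a1, which encodes the main chain of collagen I. Its family of factors binds cAMP response elements and related sites.

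For the results that follow, 5 stretches of DNA are given, from RefSeq on assembly GRCr8. A sequence upstream of the gene start was matched for 42 of the 53 genes, 13 of the 17 detected and 29 of the 36 silent ones. The 250 bases before each start were searched on both strands for the cAMP response element TGACGTCA, its 5-base first part TGACG (which TGACGTCA and TGACGTG contain), the TGACGTG of unfolded protein response elements, and CCACG, a part of the endoplasmic reticulum stress element. The first pair below are the upstream sequences of Col18a1 and Col6a1, chosen because these chains had large differences and lie near each other. Neither contained any of these motifs in this window. The second pair are 30-base windows around the only TGACGTCA found among the 42, in the promoters of Lamb3, which was detected, and Col24a1, which was silent, with the element in capitals. The last is the whole gap between Col4a1 and Col4a2, basement membrane genes that are read in opposite directions, and both were silent. In order, the Col18a1 sequence is chr20:11473395-11473644 (plus strand), that of Col6a1 chr20:11905440-11905689 (plus), the Lamb3 window chr13:107362498-107362527 (plus), the Col24a1 window chr2:236872574-236872603 (plus) and the gap chr16:84885521-84885596 (plus).
Col18a1: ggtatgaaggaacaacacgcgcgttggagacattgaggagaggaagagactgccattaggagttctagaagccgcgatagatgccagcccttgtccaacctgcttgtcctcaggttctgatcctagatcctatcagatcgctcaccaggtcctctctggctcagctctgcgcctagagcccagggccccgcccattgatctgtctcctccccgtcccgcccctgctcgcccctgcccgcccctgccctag
Col6a1: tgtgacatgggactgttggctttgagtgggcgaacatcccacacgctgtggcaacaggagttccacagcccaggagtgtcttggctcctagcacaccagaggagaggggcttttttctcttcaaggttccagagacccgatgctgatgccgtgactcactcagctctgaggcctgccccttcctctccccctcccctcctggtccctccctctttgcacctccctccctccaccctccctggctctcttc
Lamb3: tgggggtgcagTGACGTCAgatgggcgtgt
Col24a1: tccgtgtttagTGACGTCAttgcaagtcag
Col4a1-Col4a2: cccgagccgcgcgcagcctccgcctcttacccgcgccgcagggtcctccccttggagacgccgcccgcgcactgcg

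The TGACGTCA element began 44 bases before the Lamb3 start and 49 bases before the Col24a1 start. Among all 27457 promoters of the RefSeq table, 1.70% held TGACGTCA in the same window, 1.59% TGACGTG, 19.0% TGACG and 28.0% CCACG. Of the 13 promoters of detected chains, 1 held TGACGTCA, 4 held TGACG (those of Col4a5, Lama3, Lama5 and Lamb3) and 3 held CCACG (those of Col17a1, Col5a1 and Lamb1). Of the 29 promoters of silent chains, 1 held TGACGTCA, 2 held TGACG (Col24a1 and Col7a1) and 9 held CCACG. Of all 42, 0 held TGACGTG. These matches describe the letters in 1 window per gene and show no binding.

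Of the 6 arrays, CREB3L1 replicate 3 stood apart. For Gapdh, the signal at the 3' end minus that at the 5' end was 4.77 on the log2 scale there and -0.16 to -0.10 on the other 5, and the gap for beta-actin was 7.44 against 2.35 to 3.41. The spiked-in bioB control read 11.34 on that array, against 8.90 to 9.06 on the others. Over the 21 detected chain probe sets, the SD of the difference between replicate 3 and replicates 1 and 2 of the CREB3L1 group was 0.63 and 0.65, and 0.26 between replicates 1 and 2. The same SD for the 3 pairs of untransfected arrays was 0.28, 0.38 and 0.55, and over all probe sets the pairs with replicate 3 had 0.60 and 0.61 against 0.14 to 0.20 for the other pairs. Differences are therefore given with all 6 arrays and, for the detected chains and the genes named beside them, also without this one. Without it the CREB3L1 group is replicates 1 and 2 alone, the pair with the smallest SD over all probe sets (0.14). Calls made only without replicate 3 rest on that pair. The probe set for Creb3l1 lay below the detection level in both groups (3.36 ± 0.02 and 3.39 ± 0.03), and it does not check the transfection, because the construct's species and 3' sequence are unknown here. Of the marker genes of mammary cells, the basal keratin genes Krt5 and Krt14 and the smooth muscle actin gene Acta2 were detected, 3 of 8 myoepithelial markers in all. Of 11 luminal markers, Krt8 and Gata3 were detected, while Epcam, Krt18 and Cdh1 were below the level. Vim was the 1 of 8 fibroblast markers detected, with Pdgfra, Dcn and Lum below the level, and 0 of 6 endothelial markers and 1 of 5 leukocyte markers (Csf1r) were detected. None of these markers passed the test in either comparison.

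By the higher of their 2 group means, the chain probe sets fell into 2 sets with a wide gap between them. In 17 genes at least 1 probe set reached the level, 11 collagens and 6 laminins. The other 36 genes, with 48 probe sets, were silent by this measure in both groups. The 54 probe sets below the level, 6 of which belong to detected genes, had single-array values from 1.62 to 3.64, while the 21 detected ones had a higher group mean of 5.34 to 14.72. Just above the level lay Col16a1 (5.34 in untransfected cells) and the weaker Lamc1 probe set (5.59), and just below it Col11a1 (3.54), with no probe set in between. The CREB3L1 means alone did not keep this gap, as those of 5 detected probe sets lay below the level. They were 4.67 (Col16a1), 4.92 (the weaker Lamc1 set), 2.98 (Col6a3), and 2.84 and 1.62 (Col18a1). Detection rests on the values themselves and was not tested. In all, 28% of the chain probe sets were detected, against 38.9% of all probe sets.

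**Figure D1:**
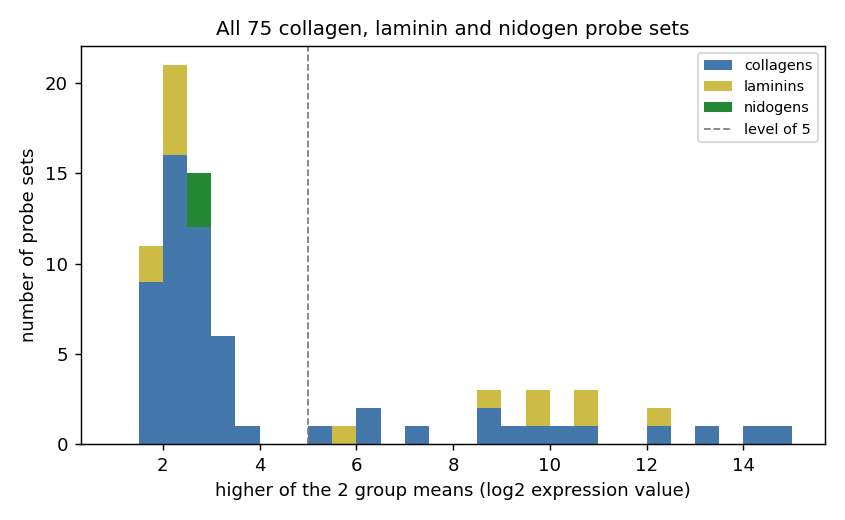
Histogram of the higher of the 2 group means (log2 expression value, x axis) for all 75 collagen, laminin and nidogen probe sets (y axis, number of probe sets per bin of 0.5), stacked by family, with the level of 5 as a dashed line. The 54 probe sets left of the line end at 3.54 and the 21 right of it begin at 5.34, and all 3 nidogen probe sets lie on the left.

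The detected chains were 3 of 11 fibrillar collagens (Col3a1, Col5a1 and Col5a2), 1 of 5 collagen IV chains (Col4a5), 3 of 7 beaded filament and anchoring collagens (Col6a1, Col6a2 and Col6a3), 2 of 9 fibril-associated collagens (Col12a1 and Col16a1), 1 of 4 transmembrane collagens (Col17a1), 1 of 2 multiplexins (Col18a1) and 6 of 10 laminins (Lama3, Lama5, Lamb1, Lamb2, Lamb3 and Lamc1). The silent set held several of the most familiar matrix chains. Col1a1 and Col1a2, the chains of collagen I, had group means of 1.93 to 3.30 over their 4 probe sets. Col4a1 and Col4a2, which make the common collagen IV of basement membranes, lay at 2.38 to 3.18, and Col4a6, the usual partner of Col4a5, at 2.87 to 3.26. Nid1 and Nid2, which bridge laminin and collagen IV, lay at 2.59 to 2.96. A probe set below the level may also fail to read its transcript: 6 dim probe sets belonged to Col6a2, Col6a3, Col12a1 and Lama5, genes whose other probe set was detected.

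Introduction of CREB3L1 went with lower Col18a1 and Col6a3, and no chain was called higher. Over all 6 arrays 3 of the 75 probe sets were lower, both of Col18a1 and 1 of Col6a3, and 0 were higher by limma, where 9 lower (12%) and 1 higher (1.33%) had an unadjusted p below 0.05, against 5.49% and 4.17% of all probe sets. Over all probe sets 0.963% were called lower and 0.425% higher, and over those detected in either group 2.3% and 1.04%. Without CREB3L1 replicate 3, 7 chain probe sets of 6 genes were lower and 0 higher, the added ones being Col6a1, Col6a2, Lamb1 and 1 of the Col5a2 probe sets, against 2.44% lower and 1.54% higher over all and 5.95% and 3.76% over those detected. The groups did not overlap for 12 of the 75 (16%), against 14.3% of all probe sets. Split by direction, 11 were lower (14.7%, against 7.75% of all) and 1 higher (1.33%, against 6.52%). The median difference was -0.02 over the 75 and -0.01 over all probe sets. Over the 21 detected chain probe sets it was -0.22, with 14 negative, against -0.01 over all detected probe sets (-0.27 and 0.00 without replicate 3). This is a description only, since 5 of the 21 reached the level in untransfected cells alone. By limma, 0 of the 54 dim ones passed the test with or without that array, with differences from -0.26 to 0.27. In bulk RNA, fewer cells that make a transcript and less transcript per cell cannot be told apart.

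**Figure D2:**
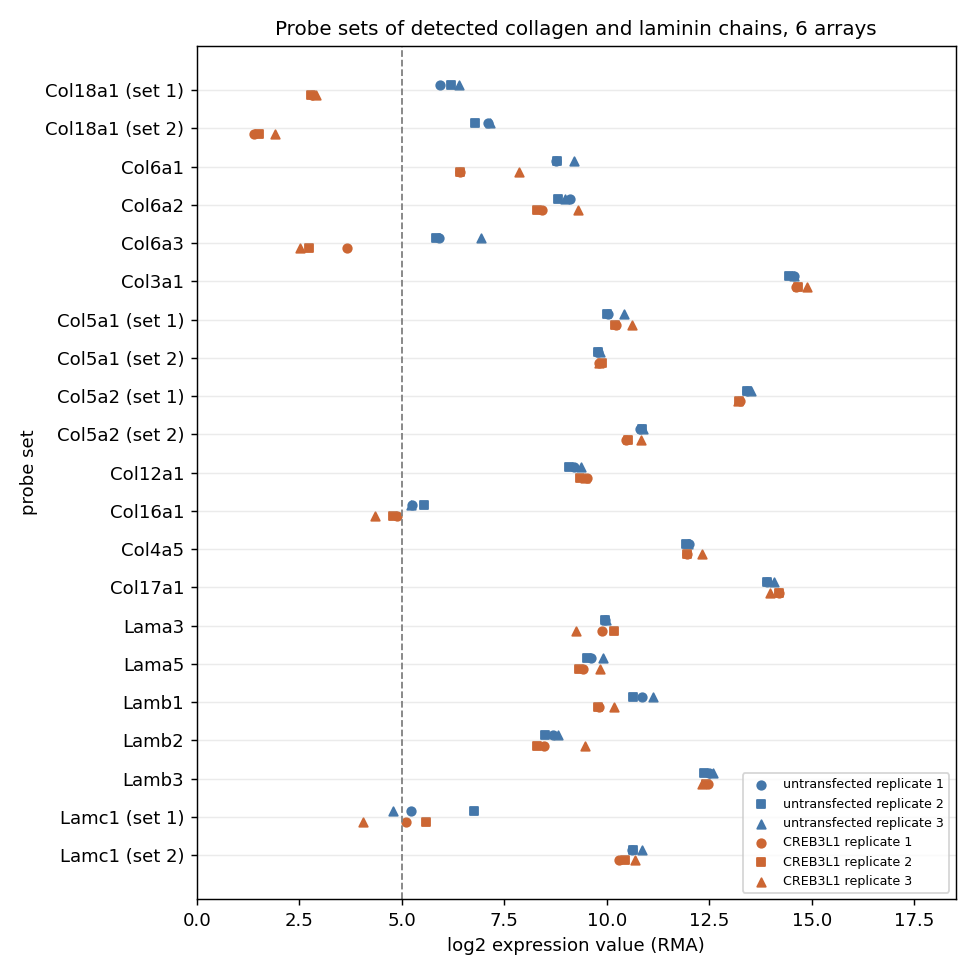
Log2 expression value (x axis) of the 21 detected chain probe sets (y axis, several sets of a gene numbered by their identifier) on each of the 6 arrays, with untransfected arrays in blue, CREB3L1 arrays in orange, a marker shape per replicate and the level of 5 as a dashed line. Both Col18a1 sets and the Col6a3 set lie right of the line in every untransfected array and left of it in every CREB3L1 array.

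Col18a1 encodes collagen XVIII, a basement membrane collagen whose C-terminal fragment endostatin inhibits the growth of blood vessels. Its stronger probe set in untransfected cells (1388459_at) read 7.11, 6.79 and 7.15 there, and 1.41, 1.52 and 1.91 in CREB3L1 cells. Each CREB3L1 value was thus far below each untransfected one, and 2 of the 3 were under the lowest value of any dim chain probe set (1.62). The fall was at least 4.04-fold, from 7.01 ± 0.20 to 1.62 ± 0.26 (n = 3 each), a measured difference of -5.40 ± 0.17 (limma adjusted p = 4.37e-04). The second probe set (1388143_at) read 5.92, 6.19 and 6.40 against 2.82, 2.79 and 2.92, a fall of at least 2.25-fold (difference -3.33 ± 0.13, adjusted p = 0.00101). Both sets thus showed the same direction without overlap. Without CREB3L1 replicate 3 the differences were -5.55 ± 0.12 and -3.37 ± 0.14 (limma adjusted p = 1.27e-04 and 0.00119). Col15a1, the other multiplexin, was silent in both groups (2.20 to 2.34).

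Collagen VI is a heterotrimer in which the products of Col6a1, Col6a2 and Col6a3 each supply 1 chain, and it anchors cells to the matrix around them. All 3 genes had lower means in CREB3L1 cells, by unequal amounts, and 1 of them passed the test with 6 arrays. Col6a3 read 5.91, 5.83 and 6.92 in untransfected cells and 3.68, 2.74 and 2.52 in CREB3L1 cells, so that the groups did not overlap although each spread over about 1 unit. This was a fall of at least 2.33-fold, with a difference of -3.24 ± 0.43 (limma adjusted p = 0.0400), or -3.02 ± 0.44 without replicate 3 (0.0315). The call was lost after quantile normalisation (0.0531) and when any 1 of the other 5 arrays was left out (0.0653 to 0.166). The second Col6a3 probe set was below the level in both groups (1.96 and 1.98).

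Col6a1 read 8.76, 8.78 and 9.19 in untransfected cells against 6.42, 6.43 and 7.86 in CREB3L1 cells. The groups did not overlap, and the highest CREB3L1 value was that of replicate 3, the array with the large 3' to 5' gap of Gapdh. With all arrays the difference of -2.01 ± 0.43, 4.02-fold, did not pass (limma adjusted p = 0.149). Without replicate 3 it was -2.48 ± 0.14, 5.59-fold, and passed (0.00279). It also passed with array weights, an alternative that keeps all 6 arrays (-2.45, limma adjusted p = 0.00460). Col6a2 read 9.10, 8.80 and 8.97 against 8.41, 8.29 and 9.29, the last again replicate 3 and the highest of the 6 arrays. Its difference was -0.29 ± 0.28 (adjusted p = 0.9998) with all arrays and -0.61 ± 0.10 (0.0425) without that one. Its dim second probe set gave 2.87 and 2.61. Replicate 3 lay above the mean of the other CREB3L1 arrays by 1.43 for Col6a1 and 0.94 for Col6a2, and differed from it by -0.69 for Col6a3. The part of RNA quality in these values was not tested. The remaining measured chains of this class, Col6a5, Col6a6, Col26a1 and the anchoring fibril chain Col7a1, were silent (at most 2.78).

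Col18a1, Col6a1 and Col6a2 lie close together on chromosome 20 of assembly GRCr8, with Slc19a1 and Pcbp3 between the first pair and no other protein-coding gene between Col6a1 and Col6a2. This neighbourhood was looked at after the values had been seen. Among the 6 genes on either side and the 2 between, 13 of 14 were measured, 7 were detected and 0 passed the test with or without CREB3L1 replicate 3. The detected neighbours had differences from -0.29 to 0.18, or -0.19 to 0.29 without that array. Slc19a1, which carries folate into cells and is the next gene after Col18a1, gave 0.17 ± 0.25 and, without replicate 3, -0.12 ± 0.06 (limma adjusted p = 0.9998 and 0.582). On the other side of Col18a1, Pofut2, an O-fucosyltransferase gene, gave 0.18 ± 0.23 and, without replicate 3, -0.07 ± 0.08 (adjusted p = 0.9998 and 0.975). The difference furthest from 0 among the neighbours, at Adarb1, a gene for an RNA-editing enzyme, was -0.78 ± 0.25 (adjusted p = 0.356), or -0.56 ± 0.19 (0.258) without replicate 3, below the level in both groups. Col6a3 lies on chromosome 9.

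**Figure D3:**
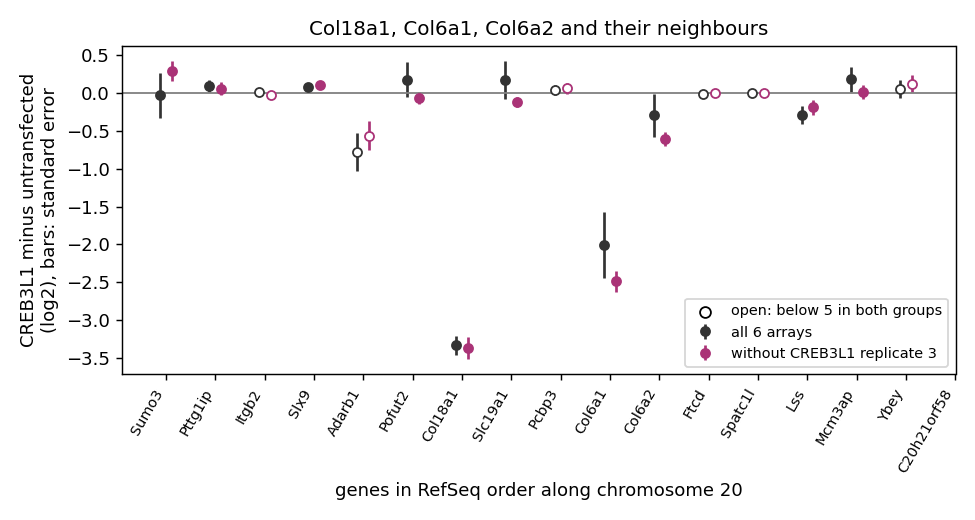
Difference between CREB3L1 and untransfected cells (log2, y axis, bars: standard error) for genes in RefSeq order along chromosome 20 (x axis, order and not distance), with all 6 arrays in black and without CREB3L1 replicate 3 in purple. Open symbols mark genes below 5 in both groups, Col18a1 is drawn by its probe set with the higher mean over all arrays (-3.33), and Col18a1, Col6a1 and Col6a2 lie below the detected neighbours when replicate 3 is left out.

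The detected fibrillar collagens had small differences, and none passed the test with all arrays weighted equally. Col3a1, the chain of the homotrimer collagen III, read 14.57, 14.45 and 14.57 in untransfected cells and 14.61, 14.67 and 14.88 in CREB3L1 cells. The CREB3L1 values were all above the others, by a small margin: 0.19 ± 0.08 with all arrays (limma adjusted p = 0.591) and 0.11 ± 0.05 (0.498) without replicate 3. Col5a2, which joins collagen V in starting and limiting fibrils, stands next to Col3a1 on chromosome 9 and differed in sign. Its first probe set read 13.42, 13.41 and 13.52 against 13.25, 13.22 and 13.21, without overlap. The difference was -0.23 ± 0.04 (adjusted p = 0.0989) and -0.22 ± 0.05 (0.0932) without replicate 3. It passed with array weights (-0.23, limma adjusted p = 0.0333). The other Col5a2 probe set read 10.80, 10.86 and 10.88 against 10.46, 10.51 and 10.82, where the last value, of replicate 3, overlapped the untransfected ones. It gave -0.25 ± 0.10 (adjusted p = 0.542) with all arrays and passed without that one, at -0.36 ± 0.04, 1.29-fold lower (0.0182). With array weights this probe set passed as well (-0.35, limma adjusted p = 0.0197). Col5a1, the partner of Col5a2 in collagen V, gave 0.20 ± 0.16 and 0.04 ± 0.04 on its 2 probe sets (adjusted p = 0.9998 each). Without replicate 3 these were 0.07 ± 0.14 and 0.05 ± 0.04, so no difference between the groups was resolved there. The chains Col1a1, Col1a2, Col2a1, Col5a3, Col11a1, Col11a2, Col24a1 and Col27a1 were silent, with group means from 1.90 to 3.54.

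Of the fibril-associated collagens, which decorate the surface of fibrils, Col12a1 read 9.19, 9.08 and 9.36 in untransfected cells and 9.51, 9.35 and 9.47 in CREB3L1 cells. The ranges touched, and the difference of 0.23 ± 0.08 did not pass (limma adjusted p = 0.437), nor did 0.22 ± 0.10 without replicate 3 (0.414). Its other 2 probe sets were dim in both groups (1.93 to 2.92). Col16a1 read 5.26, 5.53 and 5.22 against 4.89, 4.78 and 4.35. All CREB3L1 values were lower and under the level, at a difference of -0.67 ± 0.17 (adjusted p = 0.213) or -0.51 ± 0.11 (0.0836) without replicate 3, which passed the test in 1 alternative, array weights (-0.58, 0.0494). Silent members of this class were Col9a1, Col9a2, Col9a3, Col14a1, Col19a1, Col20a1 and Col22a1.

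The remaining detected collagens showed no resolved difference. Col4a5, an X-linked collagen IV chain, read 12.01, 11.93 and 11.99 against 11.96, 11.95 and 12.32. Its difference was 0.10 ± 0.11 with all arrays and -0.02 ± 0.04 without replicate 3 (limma adjusted p = 0.9998 and 0.9994). Col17a1, the transmembrane collagen of hemidesmosomes that ties basal epithelial cells to laminin, read 13.89, 13.90 and 14.08 against 14.20, 14.19 and 13.97, a difference of 0.16 ± 0.09 (adjusted p = 0.798) or 0.24 ± 0.07 (0.182) without replicate 3. Col13a1, Col23a1 and Col25a1, the other transmembrane collagens, and the short-chain network collagens Col8a1, Col8a2 and Col10a1 were silent.

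Among the laminins, the beta chain gene Lamb1 had the lowest mean difference on a probe set detected in both groups. It read 10.85, 10.65 and 11.13 in untransfected cells and 9.80, 9.80 and 10.18 in CREB3L1 cells. The groups did not overlap. The difference was -0.95 ± 0.17, 1.93-fold lower, and missed the threshold with all arrays (limma adjusted p = 0.0874). It passed without replicate 3 (-1.08 ± 0.14, 2.11-fold lower, 0.0248), with array weights (0.0175) and with dim probe sets left out of the fit (0.0493). In laminin trimers Lamb1 and Lamb2 take the same position, and Lamb2 read 8.68, 8.48 and 8.81 against 8.48, 8.31 and 9.46. Replicate 3 was the highest of the 6 arrays there, and the difference changed sign with it: 0.09 ± 0.32 with all arrays and -0.27 ± 0.11 without it (adjusted p = 0.9998 and 0.380).

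Lamc1, the gamma chain that pairs with both, read 10.62, 10.63 and 10.85 against 10.29, 10.45 and 10.69 on its stronger probe set. The ranges overlapped, and the difference was -0.22 ± 0.12 (limma adjusted p = 0.801), or -0.33 ± 0.09 (0.172) without replicate 3. The weaker Lamc1 probe set varied widely within both groups, with 5.22, 6.77 and 4.78 against 5.09, 5.60 and 4.06, and gave -0.67 ± 0.65. This value rested on single arrays: it was -0.24 ± 0.61 without CREB3L1 replicate 3 and -0.084 without untransfected replicate 2. Lama5, the alpha chain of many adult basement membranes, read 9.60, 9.51 and 9.90 against 9.41, 9.32 and 9.83, a difference of -0.15 ± 0.17 (adjusted p = 0.9998), or -0.30 ± 0.12 (0.358) without CREB3L1 replicate 3. Its other 2 probe sets were dim (1.88 to 1.92).

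Lama3 and Lamb3 encode chains of the laminin that underlies hemidesmosomes of basal epithelium. Lamb3 read 12.50, 12.36 and 12.58 against 12.47, 12.43 and 12.31, a difference of -0.08 ± 0.07 (limma adjusted p = 0.9998), or -0.03 ± 0.07 without replicate 3. Lama3 read 9.96, 9.96 and 9.99 against 9.89, 10.17 and 9.26. The untransfected values lay within 0.03 of each other, and replicate 3 was the lowest of the 6 arrays. Its difference was -0.20 ± 0.23 with all arrays and 0.06 ± 0.09 without that one (adjusted p = 0.9998 and 0.9994). Lamb3 and Col24a1, the genes with a TGACGTCA element printed above, were thus detected and silent, respectively, and neither passed the test. Lama1, Lama2, Lama4 and Lamc3 were silent, at 1.99 to 2.37.

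**Figure D4:**
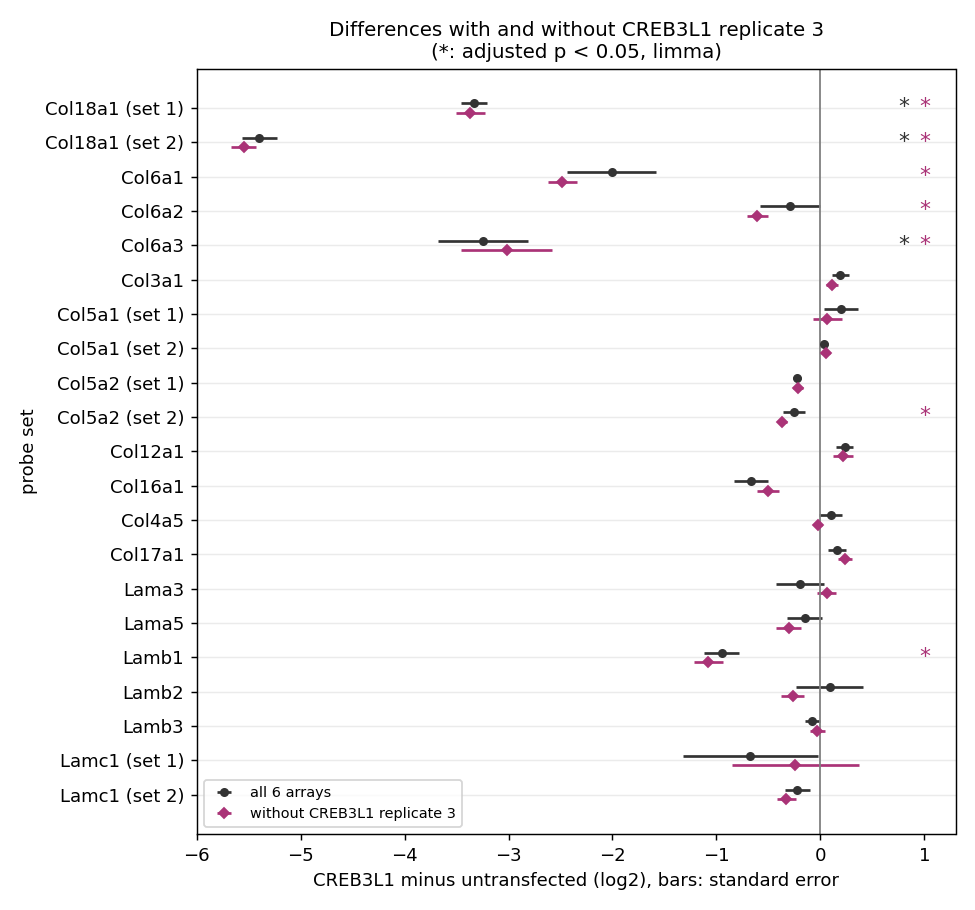
Difference between CREB3L1 and untransfected cells (log2, x axis, bars: standard error) for the 21 detected chain probe sets (y axis), with all 6 arrays in black and without CREB3L1 replicate 3 in purple, and stars where the limma adjusted p was below 0.05. Stars mark 3 probe sets with all arrays and 7 without replicate 3, all of them left of zero, and the sign of Col4a5, Lama3 and Lamb2 depends on that array.

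Genes that act on collagens and laminins were read from lists, with 1 probe set per gene. Of 13 measured receptors, 8 were detected and 0 passed the test in either direction, with or without replicate 3 (median difference -0.0033, and -0.0053 over all genes). The smallest p belonged to Itgb4, the integrin beta chain of hemidesmosomes (-0.29 ± 0.12, limma adjusted p = 0.565), and to Dag1, which encodes the laminin receptor dystroglycan (-0.19 ± 0.09, 0.633). Without replicate 3 they gave -0.35 ± 0.12 (0.278) and -0.26 ± 0.07 (0.146). Itga6 and Itga3, alpha chains of laminin-binding integrins, gave 0.08 ± 0.04 and 0.25 ± 0.30, and without replicate 3 0.09 ± 0.04 and -0.09 ± 0.07, so that the sign of Itga3 turned on that array.

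Of 22 genes for the folding and crosslinking of collagen, 1 was higher and 0 lower (median -0.02). The higher one was Loxl1, a lysyl oxidase relative (1.10 ± 0.13, limma adjusted p = 0.0279, and 1.11 and 0.0259 without replicate 3), at 3.60 and 4.70 and thus below the level in both groups. Without replicate 3 the lysyl hydroxylase gene Plod1 also passed, at -1.56 from 9.87 ± 0.22 (adjusted p = 0.00722), against -1.32 ± 0.23 (0.0893) with all arrays. Serpinh1, the collagen-specific chaperone, gave -0.37 ± 0.47, and 0.18 ± 0.06 without replicate 3 (0.9998 and 0.234). Of 5 measured procollagen processing genes 0 passed with or without replicate 3. Furin, a proprotein convertase, and Bmp1, which removes the C-terminal propeptide, had the smallest p, with 0.50 ± 0.20 and -0.14 ± 0.14 (adjusted p = 0.526 and 0.9998). Without replicate 3 they gave 0.30 ± 0.11 and -0.28 ± 0.09 (0.326 and 0.233).

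Other basement membrane genes gave 0 calls among 13 with all arrays (median -0.02). The smallest p belonged to Agrn, which encodes the laminin-binding proteoglycan agrin, and Sparc, whose product binds collagen. Agrn went from 10.78 ± 0.14 to 10.00 ± 0.31 (-0.79 ± 0.17, limma adjusted p = 0.150) and passed without replicate 3 (-0.96, 0.00899). Sparc went from 9.05 ± 0.13 to 10.50 ± 0.63 (1.45 ± 0.32, 0.161) and passed without replicate 3 (1.81, 0.00227). Hspg2, the gene for perlecan, was below the level in both groups.

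Of 9 collagenases, gelatinases and their relatives, 0 passed with all arrays, and the inhibitor genes Timp1 and Timp2 were lower without replicate 3. Mmp13, a collagenase, and Timp2 had the smallest p with all arrays, at -1.20 ± 0.18, below the level in both groups, and -0.61 ± 0.10 (limma adjusted p = 0.0592 and 0.0657). Without replicate 3 Mmp13 gave -1.16 (0.0529). Timp1 gave -0.96 ± 0.20 (0.136), and without replicate 3 -0.74 (0.00992), where Timp2 gave -0.51 (0.0192). Of 16 regulators of collagen transcription 0 passed with all arrays, and the endoplasmic reticulum stress sensor gene Atf6 was lower without replicate 3 (-0.70, 0.0118, against -0.47 ± 0.21 and 0.588 with all arrays). Xbp1, a factor of the unfolded protein response, and Wwtr1 had the smallest p with all arrays, at 0.31 ± 0.08 and 0.58 ± 0.21 (adjusted p = 0.213 and 0.440), and 0.26 ± 0.07 and 0.35 ± 0.07 (0.168 and 0.0608) without replicate 3. Over these 6 lists, 13, 22, 5, 13, 9 and 16 genes were measured, and Loxl1 was the 1 call with all arrays. Over all probe sets, 0.963% were called lower and 0.425% higher, and 2.44% and 1.54% without replicate 3. At such shares few calls would arise in lists of this size, so the counts of 0 are a description only.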

How the data were processed

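The values are log2 expression values deposited by the authors. Per the submitters' processing notes they used RMA and Partek 6.6. Log base 2 was taken from their range (0.27 to 17.22, array medians 2.97 to 3.06). Probe-level settings are unknown here. The table was used as deposited. Of 31099 probe sets, 57 controls were set aside. Genes were named from GEO's platform annotation: 20826 probe sets had 1 symbol, 436 several and 9780 none, and 0 chain symbols changed against RefSeq (GRCr8). Genes outside the family are represented by the probe set with the highest mean. limma 3.58.1 in R 4.3.3 fitted 1 mean per group on all 6 arrays (eBayes without trend, two-sided). The fit was tested on simulated data.

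The labels do not state whether the samples are separate cultures. The p-values therefore measure only the spread between them, which may be technical, and 3 arrays per group limit the precision. Replicates were numbered in accession order and not paired. At most 7 values were identical between arrays of a group.

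The chains and gene lists were chosen with earlier results of these data known. Each detected chain was described, silent chains were summarised, and up to 4 genes past the test, or else the 2 with the smallest p, were named from each list; further list genes were named after their values were seen. Alternatives were quantile normalisation, median centring, a filter on dim probe sets, eBayes with trend or robust, array weights, each array left out, the mean of a gene's probe sets, and levels of 4 and 6. Protein sequences were not used here.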

Additional observations from a re-analysis of the deposited data

How the results depend on the processing

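Both Col18a1 calls held under every alternative run, with differences of -5.55 to -5.29 and of -3.46 to -3.22 over the 2 probe sets and -4.36 for their mean. Of 138 values for the 21 detected probe sets under 7 settings that keep all arrays, 129 kept direction and side of the threshold, 1 lost its call (Col6a3, quantile normalisation), 6 gained one and 2 changed sign, with array weights (Lama3 0.10, Lamb2 -0.25). Array weights gave 8 lower chain probe sets in place of 3, and 952 lower and 600 higher over all probe sets in place of 299 and 132. A mean-variance trend left 79 higher over all. Leaving out 1 array gave 2 to 7 lower and 0 higher chain probe sets, and 116 to 756 lower and 28 to 479 higher over all. The highest counts came without CREB3L1 replicate 3, where Col4a5, Lama3 and Lamb2 changed sign, their ranges over the arrays left out being -0.021 to 0.16, -0.40 to 0.061 and -0.27 to 0.31. The cause was not tested. Levels of 4 and 6 gave 17 and 16 detected genes. No paired analysis was possible because the labels give no replicate numbers.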
